A study of Zea mays with 10 samples.

Results

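A set of 61 maize genes rose and fell by replicate number in the same way in captured newly made RNA and in total nuclear RNA of the root tip. They were chosen by measured values from a table of 48174 genes. The level is given as CPM, the count of a gene divided by the total of its library and multiplied by 1e6, and the log2 level is log2(CPM + 0.5). A gene was taken when its mean level was at least 20 CPM, its mean in captured RNA was under 300 CPM and the log2 difference between the 2 group means lay between -1 and 1. It also had to have a standard deviation (SD) of the log2 level of at least 0.4 over the 5 replicates of each group, and a Pearson correlation of at least 0.9 between the 5 log2 levels in captured RNA and those of the same-numbered nuclear libraries. The level and difference conditions left 11316 genes, and the 61 genes are 0.539% of these. The levels, the SDs, the correlation and the difference between the groups chose the genes, so all of these are given below as descriptions, with no test.

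The sequenced RNA came from nuclei of root tips (primary and seminal roots, the end 1 mm) of maize inbred B73. The seedlings for every library had grown for 3 days at 28 C under dim light, were placed in water for 1 h and then took up 5-ethynyl uridine (EU) at 175 uM for 1 h. EU is a uridine analog that enters RNA as it is made and allows that RNA to be biotinylated. The study asked how a transcription profile from labelling compares with one from nuclear RNA. The EU nascent group (n = 5) held the RNA captured on streptavidin. The nuclear group (n = 5) held total nuclear RNA of tissue given the same label, without capture, so both groups carry EU and neither is an unlabelled control. Captured RNA from unlabelled tissue was not analysed here. Both groups are numbered 1 to 5 in the labels, which call the replicates biological but do not say whether libraries with the same number share plants, a growth batch or a day.

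Several of the annotated genes belong to the route by which plants turn sulfate into reduced sulfur and use it. Sulfate is activated and reduced to sulfite by adenosine 5'-phosphosulfate reductase, sulfite reductase makes sulfide, sulfide goes into cysteine, and cysteine is a building block of glutathione. Glutathione transferases join glutathione to reactive and foreign compounds, and transporters of the MRP type, a class of ABC transporters, move such conjugates into the vacuole. In maize, herbicide safeners are known to raise glutathione transferases and the In2 genes, which were named for that induction. Small nuclear RNAs (snRNAs) are the RNA parts of the spliceosome, and most small nucleolar RNAs (snoRNAs) guide the chemical modification of ribosomal RNA.

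Replicates 1 and 3 stand apart for these genes and also have the shallowest libraries of both groups. The totals were 2391209 and 2417533 counts in EU nascent replicates 1 and 3, against 3997604 to 5770915 in the other three, and 1323450 and 1702909 in nuclear replicates 1 and 3, against 4271254 to 20397606. The 61 genes took 0.848% of all counts in EU nascent replicate 1 and 0.278% in replicate 3, with 0.395% to 0.427% in the others. In the nuclear group they took 0.842% in replicate 1 and 0.362% in replicate 3, with 0.449% to 0.460% in the others. The 2 shallow replicates therefore lie at opposite ends of the order for the set as a whole. Over replicates 2, 4 and 5 alone, the same conditions held for 12 genes, of which 1 is among the 61. The variation described here is therefore largely that of replicates 1 and 3. Of 20 listed root tip and meristem markers, 10 were matched, and their summed level was 227 to 281 CPM in EU nascent and 201 to 256 CPM in nuclear. The genes listed as plt1, plt2 and rtcs were at 0 in every library, while scr, pcna and mcm6 were detected in all. Markers were matched by name alone. Whether those at 0 are the meristem genes meant was not checked, so their absence is not read as a trait of the tissue. In replicates 1 and 3 the marker sum was 281 and 247 CPM in EU nascent and 227 and 244 CPM in nuclear. Of 15 seed storage, embryo and aleurone markers, 10 were matched and summed to at most 1.25 CPM in any library, with glb2 and ole3 at 0 throughout. Of 15 green shoot markers, 7 were matched and summed to 652 to 705 CPM in EU nascent and 456 to 508 CPM in nuclear, most of it ppdk1, with lhcb3, psad1 and fdx1 at 0. Of 6 root hair and older root markers, 2 were matched and summed to 41.8 to 52.1 CPM in EU nascent and 32.3 to 38.5 CPM in nuclear. In bulk RNA, fewer cells of a type and less RNA per cell cannot be told apart.

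The main pattern was a high level in replicate 1 and a low level in replicate 3. In 41 of the 61 genes (67.2%) replicate 1 was the highest and replicate 3 the lowest in both groups, where 1.88% of the 11316 genes had this order. Because the conditions ask for a large spread that is shared by number, this share is a description of the set. The level in replicate 1 was 2.08 to 25.6 times that in replicate 3 in EU nascent (median 3.99) and 2.16 to 31.3 times in nuclear (median 3.62). The 41 genes comprise 38 protein-coding genes, 2 transcribed pseudogenes and 1 long noncoding RNA gene. The span over replicates 2, 4 and 5 cannot exceed that over all 5, and the genes were chosen for a large spread, so the spans are descriptions. Across the 61 genes, the log2 levels of replicates 2, 4 and 5 spanned a median of 0.32 in EU nascent and 0.27 in nuclear, against 1.96 and 1.69 over all 5 replicates. For the 11316 genes, the median span was 0.20 over replicates 2, 4 and 5 and 0.39 over all 5, in both groups.

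**Figure D1:**
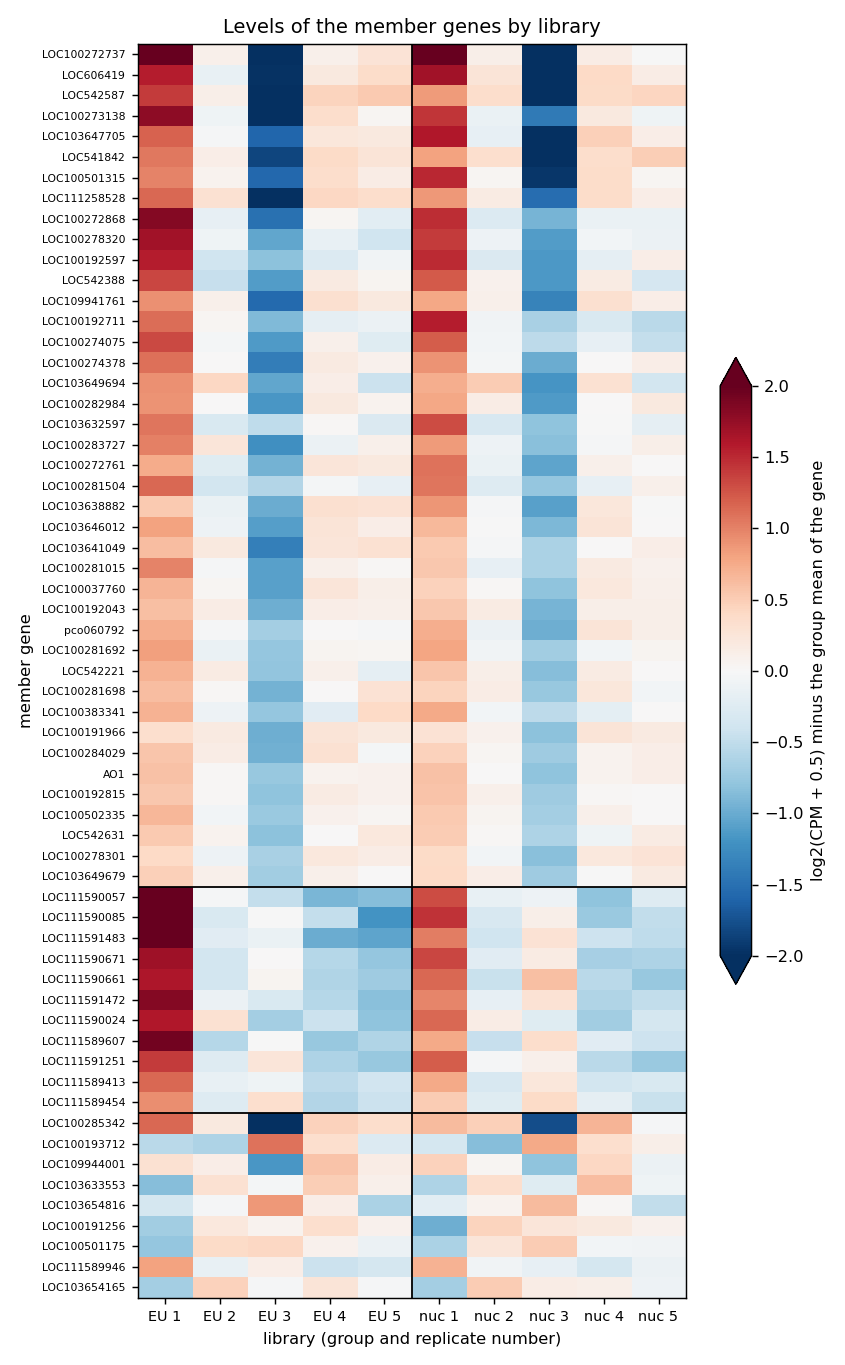
Log2 level of each of the 61 genes (rows) in each of the 10 libraries (columns), as the difference from the mean of the gene in its group; red is above and blue below, and colours stop at 2 and -2. Horizontal lines divide the 41 genes that were highest in replicate 1 and lowest in replicate 3 in both groups, the 11 snRNA and snoRNA genes and the 9 others, and the same columns are dark in both groups.

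By their names, 3 of the 61 genes belong to the reduction of sulfate. LOC606419, listed as apr and aprl1, is the gene of adenosine 5'-phosphosulfate reductase. Its level was 97.4, 29.5, 7.86, 37.3 and 42.0 CPM in EU nascent replicates 1 to 5 and 81.6, 30.2, 4.11, 33.5 and 27.9 CPM in the nuclear ones. Replicate 1 was the highest and replicate 3 by far the lowest in both groups, the other replicates lay within a narrow band, and the groups overlapped. The mean level was 42.8 ± 33.2 CPM in EU nascent and 35.5 ± 28.3 CPM in nuclear (SD, n = 5), and the lowest library, nuclear replicate 3, rested on 7 counts. LOC103647705, listed as aprl2, had 39.3, 16.8, 5.38, 20.0 and 19.5 CPM in EU nascent and 50.2, 14.3, 3.52, 22.7 and 17.8 CPM in nuclear. Its order over the replicates was the same at both ends, and the ratio of replicate 1 to replicate 3 was 7.31 in EU nascent and 14.3 in nuclear, where replicate 3 had 6 counts. The deposited counts of LOC103647705 were partly fractional, as when reads are divided between similar genes, so its level is uncertain to that extent. LOC542221, listed as sir, codes for sulfite reductase, the next step. Sir had 92.8, 63.6, 32.7, 61.2 and 50.3 CPM in EU nascent and 112, 82.1, 41.7, 84.8 and 75.9 CPM in nuclear. The highest and lowest replicates were again 1 and 3, with a smaller ratio of 2.84 in EU nascent and 2.68 in nuclear.

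Most other genes gathered by name for the same route had another order at these levels, and gsh1 had this one. The families used here were put together by gene name after the values had been seen, and they get no test. A mean of at least 20 CPM was reached by 13 genes named for sulfate transport, sulfate reduction or cysteine synthesis. The 3 just described were highest in replicate 1 and lowest in replicate 3 in both groups, and the other 10 were not. Of all genes at that level, 1.95% had this order. Most of these 10 are further genes with aprl names. The rest are listed as ST1, cys1, cys2 and SAT5 (also CNR08), with correlations between the groups of -0.21, 0.20, 0.68 and 0.73. Whether the genes gathered by name act in the route was not checked. Of the 2 glutathione synthesis genes, gsh1 (LOC542026), whose enzyme makes gamma-glutamylcysteine in the first step, had 616, 457, 148, 516 and 410 CPM in EU nascent and 478, 337, 115, 366 and 301 CPM in nuclear. Gsh1 followed the same order in both groups with a correlation of 0.998, but its mean of 429 CPM in EU nascent lay above the ceiling of 300, so it is not one of the 61. The other one, gsh2, had SDs of the log2 level of 0.20 and 0.22.

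Of the 61 genes, 2 had a glutathione transferase (gst) name, gst7 and gst31. Glutathione transferases under other names were not counted. Gst7 (LOC542587) had 164, 67.8, 10.8, 84.8 and 89.6 CPM in EU nascent and 119, 84.2, 15.9, 86.0 and 89.0 CPM in nuclear. In both groups, replicate 3 was several times below all the others and replicate 1 the highest, and the groups overlapped. Gst31 (LOC541842) had 294, 155, 39.3, 183 and 169 CPM in EU nascent and 262, 190, 37.6, 191 and 212 CPM in nuclear. Its level in replicate 1 was 7.47 times that in replicate 3 in EU nascent and 6.98 times in nuclear. Both genes belonged to a list of 19 oxidative stress genes among the 11316. None of the 17 other lists, such as heat shock, oxygen shortage, nitrogen, defence and jasmonate, cell cycle and ribosomal proteins, held any of the 61. Each of those lists has only 2 to 89 of the 11316 genes. As 0.539% of the 11316 are in the set, nothing is read from this absence. Of 10 gst genes with a mean of at least 20 CPM, 3 were highest in replicate 1 and lowest in replicate 3 in both groups, where 1.95% of all genes at that level were. The third, gst6 (LOC541991), fell just outside the set, with a correlation of 0.897. It had 139, 65.3, 41.8, 68.8 and 85.3 CPM in EU nascent and 110, 55.9, 47.6, 53.6 and 55.7 CPM in nuclear. Gst2 (LOC542311) had a correlation of 0.91 but a nuclear SD of 0.36. The remaining gst genes at that level had lower correlations: 0.88 for gst1, 0.58 for GST3, 0.36 for gst17, -0.08 for gst10, -0.21 for gst41 and -0.36 for gst5. GST25 (LOC541838) had a correlation of 0.92 and the same order. Its mean of 13.6 CPM and its log2 difference of -1.39 between the group means both kept it out. Reads can be divided or misplaced between similar genes of such a family, and gst7 had fractional counts.

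Both In2 genes of the table were in the set. In2-2 (LOC100273138) had 164, 44.5, 10.8, 60.5 and 48.8 CPM in EU nascent and 96.0, 32.3, 12.9, 40.5 and 33.2 CPM in nuclear. In2-1 (LOC542388), also listed as saf1, had 79.0, 22.5, 14.1, 35.3 and 32.3 CPM in EU nascent and 44.6, 20.1, 8.22, 21.2 and 14.7 CPM in nuclear. Replicate 1 stood well above the rest for both genes in both groups, and replicate 3 was the lowest. The ratio of replicate 1 to replicate 3 for In2-2 was 15.2 in EU nascent and 7.43 in nuclear, and that for In2-1 was 5.62 and 5.42. The genes of 12-oxo-phytodienoic acid reductases, a family that includes an enzyme of jasmonate synthesis, lay mostly below the level floor. Of 6 opr genes with a mean of at least 2 CPM, 3 were highest in replicate 1 and lowest in replicate 3 in both groups, where 1.77% of all genes at that level were. Opr1 had 50.6, 14.4, 3.31, 16.5 and 15.8 CPM in EU nascent and 37.0, 10.1, 6.46, 11.1 and 12.8 CPM in nuclear. Opr2 and opr3 had the same highest and lowest replicates, with correlations of 1.00 and 0.99 and means of 6.99 and 13.1 CPM.

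The conjugate transporter gene MRP1 (LOC100037760, also mrpa1) was in the set and varied less. It had 301, 193, 88.1, 222 and 202 CPM in EU nascent and 212, 158, 88.4, 180 and 165 CPM in nuclear. Replicate 1 was again the highest and replicate 3 the lowest, and in replicate 3 the 2 groups had nearly the same level, whereas EU nascent was higher in the other replicates. AO1, an aldehyde oxidase gene, had 307, 208, 122, 216 and 218 CPM in EU nascent and 472, 315, 180, 331 and 343 CPM in nuclear. Within every number the nuclear library was higher, although the ranges of the groups overlapped. The EU nascent minus nuclear difference in log2 level was -0.61 ± 0.03 (SD over 5 numbers), the smallest spread of that difference among the 61 genes. AO2, the other gene listed as an aldehyde oxidase, had the same highest and lowest replicates in both groups, but its nuclear SD of 0.36 kept it out. Pco060792 is the only other one of the 61 whose RefSeq symbol is not a locus number. It had 60.2, 35.5, 22.3, 36.6 and 35.5 CPM in EU nascent and 46.8, 25.8, 14.1, 33.7 and 30.7 CPM in nuclear.

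**Figure D2:**
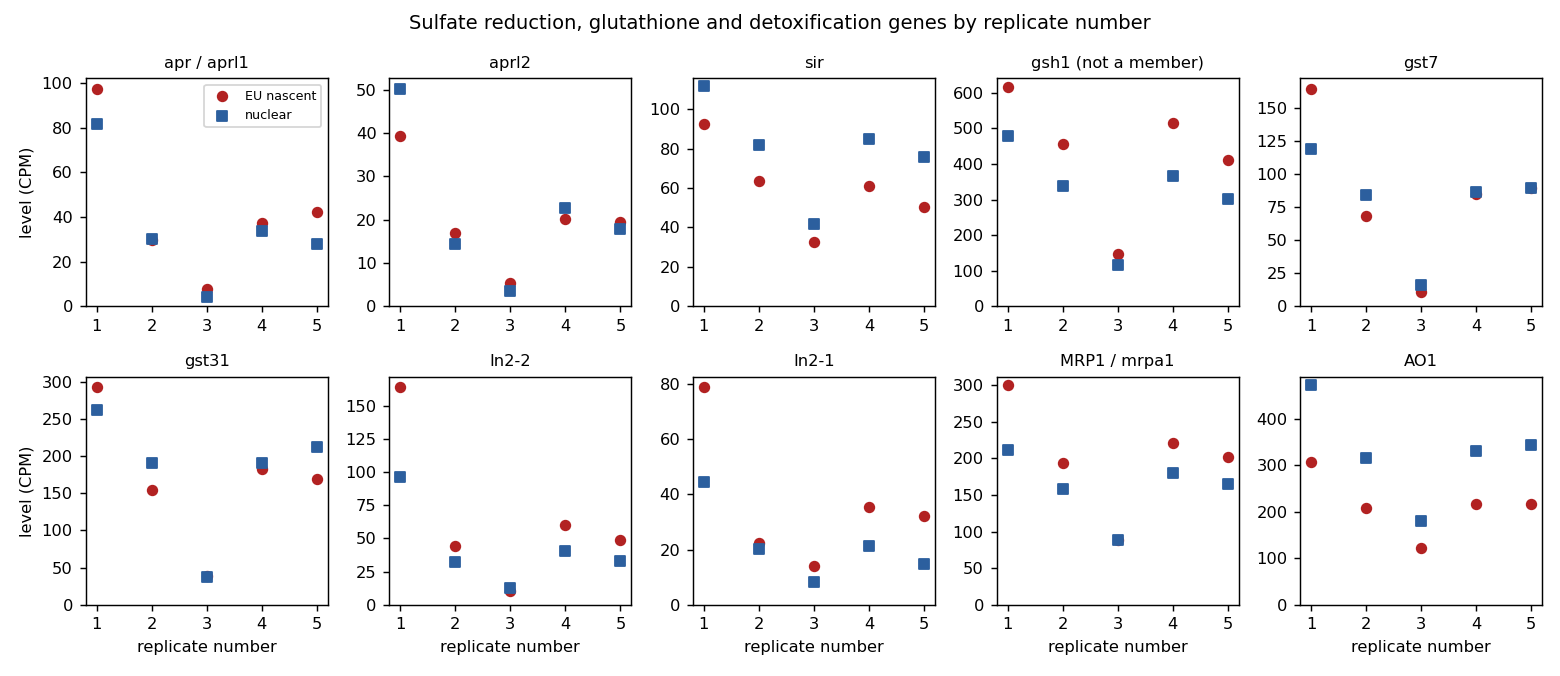
Level (CPM, axis from 0) against replicate number for 9 of the 61 genes and for gsh1, with 1 point per library, circles for EU nascent and squares for nuclear. Replicate 1 is the highest and replicate 3 the lowest in both groups in all 10 panels.

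The widest variation was in a transcribed pseudogene with no name other than its locus number. LOC100272737 had 95.1, 24.8, 3.72, 25.0 and 28.0 CPM in EU nascent and 91.8, 20.6, 2.94, 21.2 and 18.8 CPM in nuclear. Replicates 2, 4 and 5 were within a few CPM of each other in each group, replicate 1 stood far above them and replicate 3 far below. The ratio of replicate 1 to replicate 3 was 25.6 in EU nascent and 31.3 in nuclear, the latter with 5 counts in replicate 3, and the counts of this gene were partly fractional. The second transcribed pseudogene, LOC111258528, showed ratios of 11.2 and 5.42. The long noncoding RNA gene LOC109941761 had 181, 103, 32.3, 120 and 110 CPM in EU nascent and 135, 84.4, 31.1, 99.3 and 86.9 CPM in nuclear. Its correlation between the groups was 0.999, the highest of the set. LOC100192043, protein-coding, also reached 0.999, with a difference between the groups of 0.11 ± 0.05 (SD over 5 numbers) on the log2 scale. LOC103649679 and LOC100281698 are next to each other on chromosome 3 in the RefSeq gene table and were both highest in replicate 1 and lowest in replicate 3. The 61 genes lie on 10 chromosomes, and the only other pair within 10 genes of each other is one of snRNA genes, LOC111590661 and LOC111590671 on chromosome 1.

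Small RNA genes made up 11 of the 61, with 8 snRNA and 3 snoRNA genes. The snRNA members were 8 of the 12 snRNA genes among the 11316 (66.7%), the snoRNA members 3 of 66 (4.55%) and the protein-coding members 46 of 10660 (0.432%). LOC111590057, the snRNA gene of the set with the highest CPM, had 880, 182, 133, 97.8 and 102 CPM in EU nascent and 1072, 392, 405, 247 and 363 CPM in nuclear. Replicate 1 was several times above all the others in EU nascent and more than 2 times above them in nuclear, and replicate 3 was not the lowest. LOC111590661 had 395, 98.7, 133, 84.1 and 78.0 CPM in EU nascent and 422, 139, 288, 130 and 112 CPM in nuclear. LOC111591483 had 473, 76.2, 80.9, 44.7 and 42.5 CPM in EU nascent and 419, 157, 252, 154 and 145 CPM in nuclear. In both of these, replicate 3 was the second highest in each group. LOC111590671 had 223, 52.8, 68.9, 45.9 and 39.8 CPM in EU nascent and 289, 97.9, 127, 71.9 and 74.3 CPM in nuclear, again with replicate 1 first and replicate 3 second. None of the 11 small RNA genes was highest in replicate 1 and lowest in replicate 3 in both groups (0 of 11). As 1.88% of the 11316 genes had this order, nothing is read from this absence. The median log2 level of the 11 genes relative to the group mean was 1.70 in EU nascent replicate 1 and 1.14 in nuclear replicate 1, and -0.01 and 0.22 in replicate 3. In the other 50 genes, the medians for replicate 3 were -0.98 in EU nascent and -0.82 in nuclear.

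All annotated snRNA genes together took 1.5% of counts in EU nascent replicate 1 against 0.222% to 0.389% in the other EU nascent libraries. In nuclear they took 2.16% in replicate 1, 1.69% in replicate 3 and 0.983% to 1.14% in replicates 2, 4 and 5. The 8 snRNA genes of the set are part of these shares. Whether the class share bears on the other 50 genes was not tested. Counts of 8 of the 11 small RNA genes were partly fractional, and snRNA genes have near-identical copies, so their single values are uncertain. Beyond the 61, 18 genes met the spread and correlation conditions and failed only on the difference between the groups, and 14 of these were snRNA or snoRNA genes. Another 4, including gsh1, failed only on the ceiling of 300 CPM, and 1 snoRNA gene failed on both.

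**Figure D3:**
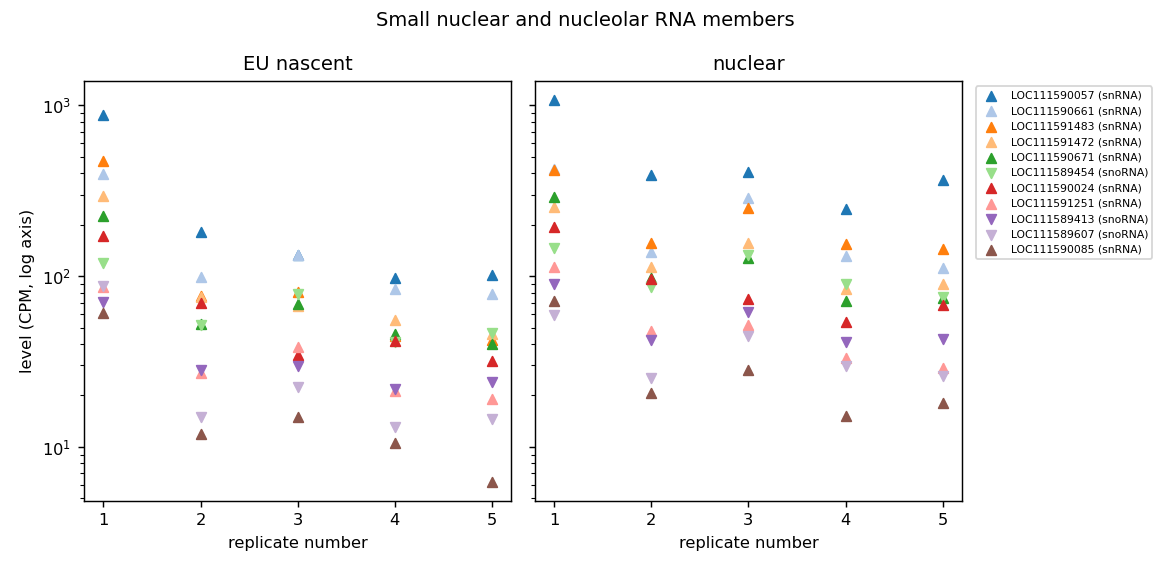
Level (CPM, log axis) of the 11 snRNA and snoRNA genes of the set against replicate number, EU nascent on the left and nuclear on the right, with 1 point per library. Replicate 1 is the highest for all 11 genes in both groups.

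The remaining 9 genes showed other orders. LOC100285342 came close to the main pattern, with 45.2, 23.0, 4.14, 27.8 and 25.8 CPM in EU nascent and 30.2, 27.0, 5.29, 31.0 and 19.0 CPM in nuclear. Replicate 3 was several times below the rest in both groups, and only the order of replicates 1 and 4 in nuclear set it apart. LOC109944001, a long noncoding RNA gene, was low in replicate 3 as well, with 84.1, 75.2, 30.2, 102 and 75.8 CPM in EU nascent and 111, 82.6, 45.8, 107 and 73.7 CPM in nuclear. High levels in replicate 3 occurred too. LOC103654816 had 136, 171, 320, 191 and 112 CPM in EU nascent and 112, 136, 201, 133 and 92.0 CPM in nuclear, and LOC100193712 had 32.2, 30.7, 101, 60.0 and 39.0 CPM and 21.2, 14.7, 45.8, 34.2 and 29.3 CPM. Both were highest in replicate 3 in both groups, and their lowest replicates were 5 and 2. LOC100501175 was the 1 gene with the reverse of the main order, highest in replicate 3 and lowest in replicate 1, with 39.7, 89.2, 90.6, 72.1 and 62.5 CPM in EU nascent and 26.4, 48.8, 58.7, 39.9 and 39.3 CPM in nuclear. LOC103633553, LOC103654165 and LOC100191256 were lowest in replicate 1 in both groups. Their levels in replicate 1 were 22.6, 28.4 and 19.2 CPM in EU nascent, and those of the other replicates were 39.7 to 57.9, 45.0 to 63.4 and 33.1 to 39.7 CPM in the same order of genes. LOC111589946 was highest in replicate 1 and lowest in replicate 4 in both groups. Over all 61 genes, the highest replicate was the same number in both groups for 58 and the lowest for 55.

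The spread between replicates was larger in EU nascent than in nuclear for most of the set. The conditions put a floor on both SDs but did not set which was larger, and the shares below are descriptions. The SD of the log2 level was larger in EU nascent for 44 of 61 genes (72.1%), against 5695 of the 11316 (50.3%). Its median was 0.72 in EU nascent and 0.65 in nuclear for the 61 genes and 0.16 in both groups for the 11316. Within the set, the excess was greatest in the small RNA genes. All 11 had the larger SD in EU nascent, with a median ratio of the SDs of 1.41, and 33 of the other 50 genes did, with a median ratio of 1.10. For snRNA genes this was not particular to the set: the median ratio was 1.39 in the 8 of the set and 1.52 in all 12 among the 11316. For snoRNA genes it was 1.51 in the 3 of the set and 1.05 in all 66. For LOC111591483 the SD was 1.41 in EU nascent and 0.65 in nuclear. LOC606419 and LOC103647705 went the other way, with SDs of 1.28 and 1.00 in EU nascent and 1.52 and 1.33 in nuclear. Whether the difference in spread exceeds what 5 replicates give was not tested.

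**Figure D4:**
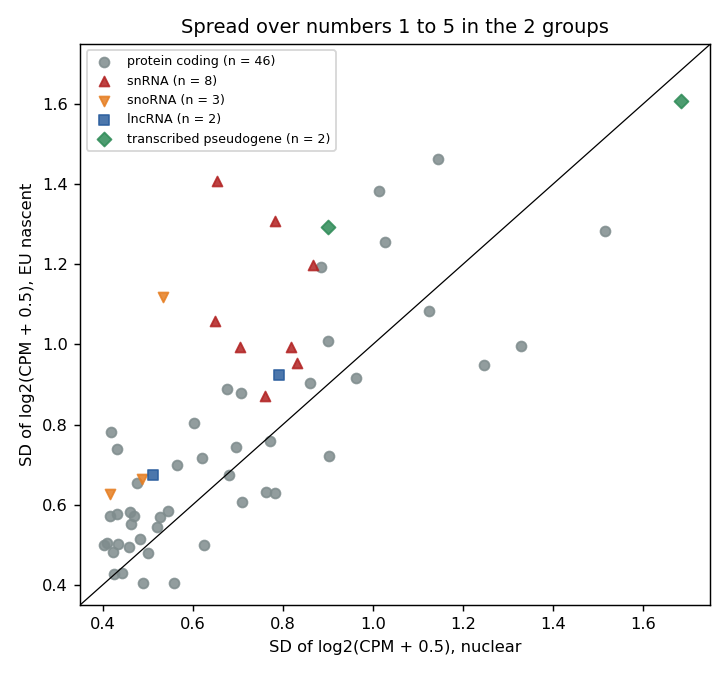
SD of log2(CPM + 0.5) over the 5 replicates in EU nascent (vertical axis) against nuclear (horizontal axis), 1 point per gene, marked by gene class, with the line of equal SD. Points above the line are the 44 genes with the larger SD in EU nascent, and all 11 snRNA and snoRNA genes are among them.

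The difference between the groups was small, as the conditions require. The mean level was higher in EU nascent for 30 of the 61 genes and lower for 31. At a Benjamini-Hochberg adjusted p of 0.05 over 21048 genes, the edgeR quasi-likelihood F test called 3 of the 61 higher and 8 lower in EU nascent, where 19.8% of all genes tested were called higher and 21.1% lower. With the replicate number as a block, the counts were 13 and 30, against 24.2% and 25.4% of all genes. The variation by number that chose these genes is what the block removes, and nothing is read from these counts. All 11 small RNA genes had the lower mean level in EU nascent, by 0.27 to 0.83 on the log2 scale. Among the protein-coding genes, the difference ran from -0.96 (LOC103641049, 65.3 ± 25.4 CPM in EU nascent and 128 ± 35.2 CPM in nuclear, SD, n = 5) to 0.93 (LOC100281015, 47.4 ± 23.9 CPM and 24.7 ± 7.20 CPM).

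The correlation threshold cut through a continuous range. Of the 11316 genes, 811 (7.17%) had a correlation of at least 0.9, and 750 of these failed only on the spread. Of the 81 genes with enough spread in both groups, 20 had a lower correlation, from -0.67 to 0.897 with a median of 0.826. The genes just inside were the snoRNA gene LOC111589607 at 0.902 and the snRNA gene LOC111591472 at 0.905, and those just outside were gst6 at 0.897 and LOC100383482 at 0.888. LOC111589607 had 87.4, 15.0, 22.5, 13.1 and 14.6 CPM in EU nascent and 59.3, 25.2, 44.8, 29.6 and 26.0 CPM in nuclear, and LOC111591472 had 293 CPM in EU nascent replicate 1 and 45.8 to 75.6 CPM in the others. LOC100383482 was unlike these, with its highest level in replicate 5 (85.6 CPM in EU nascent, 51.3 CPM in nuclear) and its lowest in replicate 1 (37.6 and 18.1 CPM). With 5 points per gene, the correlation is a coarse measure.

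**Figure D5:**
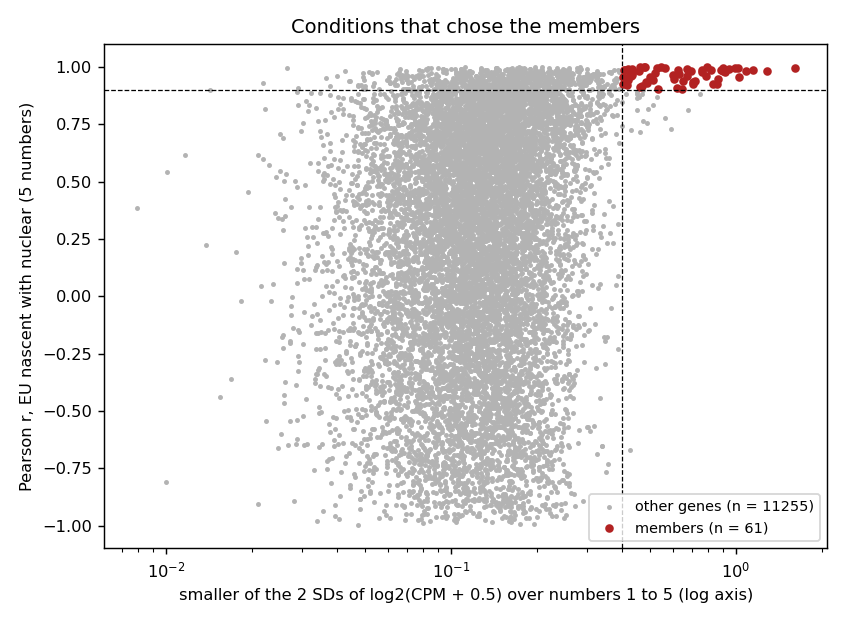
Pearson correlation of the EU nascent with the same-numbered nuclear log2 levels (vertical axis) against the smaller of the 2 SDs (horizontal log axis), 1 point per gene, for the 11316 genes that met the level and difference conditions. Dashed lines mark 0.9 and 0.4, and the 61 genes are the points at the upper right.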

How the data were processed

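Per the labels' protocols, DNase treatment and removal of ribosomal RNA came before strand-specific library preparation, with molecular identifiers in the adaptors. The submitters' processing notes list HTSeq, deepTools, UMI-tools, SAMtools, STAR 2.7.10b and Trimmomatic (0.36 and 0.39) without saying what each was used for. The genome build, the annotation and the strand setting of the counting are not given in the sources used here, so no coordinates are printed, and values of the 7 genes of the set that overlap another gene are uncertain. The deposited values were treated as estimated counts of reads per gene that the authors had not normalized. This unit was read from the values, since the labels do not name it. Of the 61 genes, 23 (37.7%) had fractional values in some library, against 30.5% of the 11316 genes.

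Of 48174 gene identifiers, 48127 (99.9%) were found among the RefSeq genes of Zm-B73-REFERENCE-NAM-5.0, the source of names, classes and neighbours. Groups and replicate numbers came from the sample labels. The members, gene lists and families were chosen with earlier results of these data known. One name pattern in the cell wall list that caught marker names was removed after its result had been seen. Genes named with values were those of the set whose RefSeq symbol, as distinct from a synonym, is not a locus number, and the 6 of the rest with the largest mean SD. Up to 2 per list and the 2 nearest the correlation threshold on each side were named as well. All other genes were named after their values had been seen.

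Same-numbered libraries deviated together over 21048 genes. The correlations of their deviations from the group means were 0.20, 0.22, 0.18, 0.19 and 0.16 for numbers 1 to 5 (0.18, 0.21, 0.15, 0.18 and 0.15 without the 61 genes), while the highest value between different numbers was 0.113. Libraries were paired by the replicate number in the labels. The labels do not say what same-numbered libraries share, so that they belong together rests on these values. The groups were compared on rounded counts with edgeR 4.0.16 under R 4.3.3 (quasi-likelihood F test, filterByExpr, TMM, no block). DESeq2 1.42.0 and the number as a block were alternatives. Other alternatives changed the scaling, the pseudocount, the level floor and the libraries used. Library totals ran from 1323450 to 20397606 counts, and the lowest count of a gene of the set in any library was 5. The p-values rest on the spread between these libraries. Python 3.11.15, numpy 2.4.6, pandas 2.3.3 and matplotlib 3.10.9 were used for the rest.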

Additional observations from a re-analysis of the deposited data

Results flagged for a closer look

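Among the 43 genes named with values or with their order, 86 groups of 5 libraries were examined, and in 14 of them the highest library lay so far from the next that its gap divided by the range exceeded 0.71, Dixon's critical value for 5 samples. Chance flags about 1 in 20 groups of normally distributed values, the genes were chosen for a large spread, and all 14 libraries were replicate 1. The gap and the range were taken on CPM, where a low library stands out less than on the log2 scale that chose the genes. Low libraries, such as those of replicate 3, were not examined in this way on the log2 scale. In the snRNA gene LOC111590057, replicate 1 had 880 CPM in EU nascent, with 182 as the next highest, and 1072 CPM in nuclear, with 405 as the next. In LOC111590671 it had 223 CPM in EU nascent and 289 CPM in nuclear, with 68.9 and 127 as the next. Of the small RNA genes, LOC111591483 (473 CPM), LOC111590661 (395 CPM), LOC111591472 (293 CPM) and LOC111589607 (87.4 CPM) stood out in this way in EU nascent only, and whether the groups differ in this was not tested. The transcribed pseudogene LOC100272737 stood out in EU nascent (95.1 CPM) and in nuclear (91.8 CPM), as did opr1, with 50.6 and 37.0 CPM. Gst6 (110 CPM) and LOC111589946 (38.5 CPM) stood out in nuclear. The 2 libraries of replicate 1 are the shallowest of their groups, and what part that has in these levels was not tested.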

How the results depend on the processing

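The set had 61 genes, 44 with the larger SD in EU nascent. Under TMM-scaled totals, DESeq2 size factors, a pseudocount of 2, libraries thinned to the smallest one or no ceiling on the EU nascent level (added after the data were seen), it had 53 to 65 genes and 40 to 46 with the larger SD in EU nascent. Of the 53 genes after thinning, 41 are among the 61, whereas the other settings of this group kept 56 to 61 of them. With no floor on the mean level it had 320 and 192, with a floor of 50 CPM 31 and 24, and without genes with fractional counts 38 and 26; each of these changes which genes could enter. Leaving out 1 replicate number gave 35 to 79 genes and 24 to 55 with the larger SD in EU nascent. Without replicate 1, 25 of the 61 remained, and without replicate 3, 31 remained. Without both, 12 genes met the conditions, 8 with the larger SD in EU nascent, and 1 of the 61 remained (added after the data were seen). Over all genes, edgeR called 4166 higher and 4436 lower, or 7386 and 2765 with library totals alone. Of the 61 genes it called 3 and 8. The counts were 5 and 5 with library totals alone, 1 and 3 with DESeq2, and 10 and 28 without replicates 1 and 3. With the replicate block they were 13 and 30, and over all genes 5099 and 5347. Leaving out 1 library gave 2 to 5 higher and 5 to 22 lower members, with 22 lower without EU nascent replicate 1 and 5 higher without EU nascent replicate 3. The causes were not tested. Depth limits the lowest levels: the smallest nuclear values of LOC100272737, LOC103647705 and LOC606419 rest on 5, 6 and 7 counts.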
